A study of Mus musculus with 32 samples.

Results

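The cell cycle genes described here are 45 genes of DNA replication, cycle entry and mitosis, taken from a list of names out of the 43035 genes of the deposited tables. The list was drawn up with earlier results of these data known. They are 13 replication genes, 26 mitotic genes and 6 genes of cycle entry, and each symbol was matched to 1 Ensembl gene. The cell cycle copies the genome in S phase and shares it between daughter cells in M phase. The transcription factors of the E2F family switch on the replication genes as a cell leaves G1. The B-MYB and FOXM1 complexes switch on the mitotic genes later. The DREAM complex represses such genes in resting cells, from which messages of the mitotic class are largely absent. Adult muscle fibres have left the cycle for good, and the cells of muscle that can divide are satellite cells, its stem cells, and blood, vessel and connective tissue cells.

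The replication genes were Mcm2, Mcm3, Mcm4, Mcm5, Mcm6 and Mcm7, which form the ring of the replicative helicase, Cdc6 and Cdt1, which load it, Gins2, which activates it, Pcna, the sliding clamp, and Rrm1, Rrm2 and Tyms, which make DNA precursors. The genes of cycle entry were the G1 cyclins Ccnd1, Ccnd2, Ccne1 and Ccne2 and the transcription factors E2f1 and Foxm1. Of the mitotic genes, Cdk1, Ccna2, Ccnb1 and Ccnb2 encode the mitotic kinase and its cyclins, and Plk1, Aurka, Aurkb, Birc5 and Cdca8 encode further mitotic kinases and Aurora B partners. Bub1, Bub1b, Cenpe, Cenpf, Ndc80 and Nuf2 act at the kinetochore, where chromosomes meet the spindle. Kif11, Kif20a, Kif23, Prc1, Tpx2 and Nusap1 build the spindle and the cleavage site. Cdc20, Ube2c and Cdca3 belong to the ubiquitin-dependent steps of mitosis, Top2a untangles DNA, and Mki67 encodes the Ki-67 proliferation antigen.

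The study compared mice with an inducible DUX4 gene with WT mice, all given doxycycline chow, the WT mice included. DUX4 is the transcription factor whose unwanted expression in muscle underlies facioscapulohumeral muscular dystrophy. Whole muscle was sequenced at 2 weeks in 5 libraries of DUX4 mice (IDUX.2Weeks) and 5 of WT mice (WT.2Weeks), and at 16 weeks in 4 of DUX4 mice (IDUX.16Weeks) and 4 of WT mice (WT.16Weeks). From hind limb muscle, 75000 cells were sorted for each library: CD31+ endothelial cells from 4 DUX4 (CD31DUX) and 3 WT libraries (CD31WT), and PDGFRa+ fibroadipogenic progenitors (FAPs), the connective tissue precursors of muscle, from 4 DUX4 (PDGDUX) and 3 WT libraries (PDGWT). The promoter or cell type that drives the transgene, the age and sex of the mice, the muscles taken for whole-muscle RNA, and the time point of the sorted cells are nowhere stated in the labels. Nothing states that the libraries of a group came from separate mice, so p-values measure only the spread between these libraries. The human DUX4 transgene was not analysed here.

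The 32 libraries held 6071276 to 20666816 estimated counts. Levels are given as CPM, counts relative to library size, after TMM scaling within whole muscle or within sorted cells, so that levels of muscle and sorted libraries were not set against each other. A count of 3, the limit that a count of 0 allows, was worth 0.145 to 0.494 CPM by library totals, before TMM scaling. Bounds for groups at 0 use the scaled value, on average 0.167 CPM in CD31WT and 0.285 CPM in PDGDUX. This limit covers counting error only. The labels of the sorted cells matched their markers: 12 of 12 endothelial markers were lower and 11 of 12 FAP markers higher in PDGWT than in CD31WT. The CD31DUX libraries held more RNA of FAP markers than the CD31WT libraries, with summed levels of 28700 to 33600 CPM against 9560 to 12800 CPM. The library WT.16Weeks replicate 1 stood apart from the other 3 of its group, with a summed level of 221 CPM for macrophage markers against 35.7 to 39.1 CPM, and of 0.651 CPM for erythroid markers against 276 to 744 CPM. In the 2-week libraries of both genotypes, replicates 1 to 3 held 51.2 to 73.5 CPM of the position gene Hoxd8, and replicates 4 and 5 held 4.49 to 5.56 CPM. Results that rest on these libraries are given with and without them.

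Per kilobase of exon, Pcna had the highest level of the 45 genes in each of the 8 groups, at 12.0 ± 2.18 CPM per kb in IDUX.2Weeks (SD, n = 5) and 9.52 CPM per kb in WT.2Weeks, and at 78.5 CPM per kb in CD31DUX and 99.2 CPM per kb in CD31WT. The kinetochore genes Ndc80 and Cenpe were among the lowest 4 of the 45 in each of the 4 muscle groups. In sorted cells the order ended otherwise, with Kif11 last in CD31DUX, Bub1 in CD31WT, Ndc80 in PDGDUX and Cdca8 in PDGWT. In whole muscle 41 of the 45 genes had enough counts to be tested, and Cdc6, Aurkb, Plk1 and Ndc80 did not. In sorted cells all 45 were tested. Of the genes tested, 13 in muscle and 9 in sorted cells exceeded the count cutoff in fewer than 4 WT libraries, so that they passed mainly through other groups, and medians below are therefore taken over all 45 genes without that filter.

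In DUX4 muscle at 2 weeks, 9 of the 41 cell cycle genes tested were higher than in WT muscle and none was lower, at an adjusted p under 0.05 in edgeR's quasi-likelihood test with Benjamini-Hochberg adjustment over all genes. Across the 15396 genes tested, 11.2% were called higher and 6.47% lower. Of the 9, 5 were mitotic (Cenpf, Bub1, Ccnb2, Top2a and Prc1), 3 were replication genes (Gins2, Rrm1 and Mcm4) and 1 belonged to cycle entry (Ccne1). Cenpf, Bub1, Ccnb2 and Ccne1 had passed the count filter mainly through DUX4 libraries, with 4 to 9 DUX4 and 0 to 3 WT muscle libraries over the cutoff. Such genes had little room to be called lower, so the counts in the 2 directions are not on equal terms. Of the 41 genes, 16 had an unadjusted p under 0.05, as had 4795 of all 15396 genes tested. The median log2 fold change of the 26 mitotic genes was 0.88, all 26 being positive, against 0.35 for the 13 replication genes, of which 10 were positive, and 0.00 for all genes. These log2 fold changes are relative to TMM scaling. With library totals in its place the median of all genes tested was 0.33 in place of -0.01. The calls among all genes were then 4344 higher and 342 lower in place of 1721 higher and 996 lower.

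Cenpf, a large kinetochore protein that accumulates from late S phase to mitosis, had 8.83, 6.79, 3.36, 4.64 and 7.67 CPM in the 5 IDUX.2Weeks libraries, against 1.23, 0.217, 1.19, 0.609 and 1.13 CPM in the 5 WT.2Weeks libraries. The lowest DUX4 library lay above the highest WT library. The log2 fold change was 2.82 ± 0.35 (SE), with an edgeR adjusted p of 3.35e-05. Ccne1, the cyclin that drives the step from G1 into S phase, had 2.75, 3.16, 2.67, 1.7 and 2.63 CPM in DUX4 muscle, against 0.0817, 0.651, 0.551, 0.203 and 0.377 CPM in WT muscle. Its groups did not overlap either, and its log2 fold change was 2.81 ± 0.46 with an edgeR adjusted p of 0.00046. The other G1 cyclins did not pass the test in the same libraries, with log2 fold changes of 0.42 for Ccnd1, -0.22 for Ccnd2 and -0.34 for Ccne2. Differences between the cyclins were not tested.

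Top2a, the topoisomerase that separates replicated chromosomes, had 10.6, 8.1, 6.35, 10.3 and 8.02 CPM in IDUX.2Weeks, against 4.0, 1.74, 2.94, 1.56 and 4.24 CPM in WT.2Weeks. All 5 DUX4 libraries lay above all 5 WT libraries, with a log2 fold change of 1.58 ± 0.41 and an edgeR adjusted p of 0.0133. Ccnb2, a B-type cyclin that activates the mitotic kinase, had 3.07, 2.03, 2.35, 3.33 and 2.21 CPM in IDUX.2Weeks, against 0.654, 0.108, 0.551, 0.203 and 1.32 CPM in WT.2Weeks. These groups were also apart, and the log2 fold change was 2.18 ± 0.56 with an edgeR adjusted p of 0.0126. Ccnb2 is uncertain because the table also lists a pseudogene, Ccnb2-ps, which held 67 counts in IDUX.2Weeks and 74 in WT.2Weeks, beside 193 and 32 counts for Ccnb2 in these groups, and reads could be split between the copies.

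Gins2, a subunit of the complex that activates the helicase, had 20.4, 14.5, 16.9, 8.9 and 18.9 CPM in IDUX.2Weeks, against 3.92, 2.71, 5.05, 8.66 and 9.05 CPM in WT.2Weeks. DUX4 replicate 4 fell just below the highest WT library and the other 4 lay above all of them. Its log2 fold change was 1.43 ± 0.35, with an edgeR adjusted p of 0.0102. Bub1, a kinase of the spindle checkpoint, had 0.72, 0.536, 0.317, 1.32 and 0.346 CPM in IDUX.2Weeks, against 0.163, 0, 0.0918, 0.0676 and 0.189 CPM in WT.2Weeks. The WT libraries held 0 to 2 counts each and the DUX4 libraries 5 to 17, and the call (log2 fold change 2.53 ± 0.77, edgeR adjusted p = 0.0318) was lost in 4 of the 8 fits that left out 1 library and still tested it. Gins2 shares exon sequence with Gse1 on the other strand, and whether counting used strand is not given in the sources used here.

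The other 3 genes called at 2 weeks changed less. Rrm1, the large subunit of ribonucleotide reductase, averaged 43.8 ± 5.15 CPM in DUX4 muscle and 33.8 ± 3.2 CPM in WT muscle (SD, n = 5 each), with a log2 fold change of 0.38 ± 0.09 and an edgeR adjusted p of 0.00908. The Rrm1 call was lost without DUX4 replicate 5 (edgeR adjusted p = 0.0518). Mcm4 averaged 6.74 CPM in DUX4 muscle and 5.28 CPM in WT muscle, and Prc1, which bundles the microtubules of the central spindle, averaged 5.49 CPM in DUX4 muscle and 2.46 CPM in WT muscle. The calls of Mcm4 (edgeR adjusted p = 0.0398) and Prc1 (0.0469) were each lost in 8 of the 10 fits that left out 1 library. The most used marker of proliferation was not among the genes called: Mki67 had 4.45, 2.74, 5.52, 13.7 and 6.84 CPM in IDUX.2Weeks, against 4.57, 1.19, 3.77, 2.84 and 5.56 CPM in WT.2Weeks. The groups overlapped, and its edgeR adjusted p was 0.29 at a log2 fold change of 0.88 ± 0.54. Pcna, the clamp, ranged from 20.3 to 33.8 CPM in DUX4 muscle and from 20.5 to 24.3 CPM in WT muscle (edgeR adjusted p = 0.298).

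**Figure D1:**
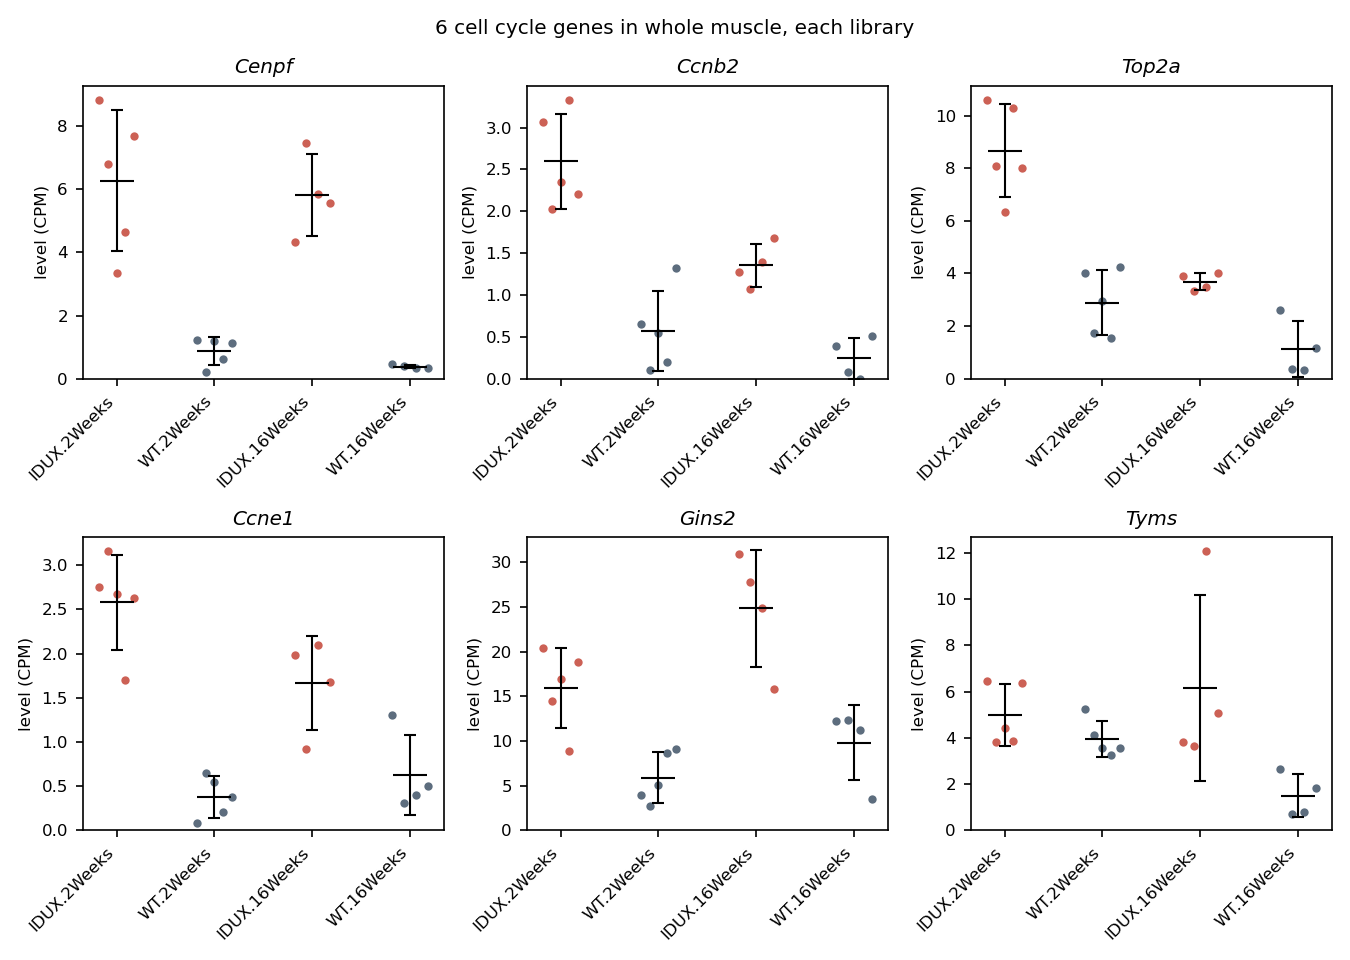
Level (CPM, y axis) of Cenpf, Ccnb2, Top2a, Ccne1, Gins2 and Tyms in each whole-muscle library, with the group on the x axis. Points are libraries, horizontal bars the group mean and whiskers the SD (n = 5 at 2 weeks, n = 4 at 16 weeks). All DUX4 points of Cenpf, Ccnb2 and Top2a lie above all WT points of the same time, while Gins2 touches its WT group at 2 weeks and Ccne1 overlaps its WT group at 16 weeks.

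The 2 sets of 2-week libraries that Hoxd8 separates were also fitted with a term for the set and compared within themselves. With the term, edgeR called 11 genes higher and none lower, the 9 above together with Foxm1, a transcription factor of mitotic genes (log2 fold change 1.03 ± 0.33, adjusted p = 0.0347), and Cenpe (1.16 ± 0.39, 0.0465). In replicates 1 to 3 alone (3 against 3 libraries) edgeR called 10 of 38 cell cycle genes tested. In replicates 4 and 5 alone (2 against 2 libraries) it called none of 40, with 11 at an unadjusted p under 0.05, and no other tool was run within the sets. The sets differ in their number of libraries, so these counts do not compare them. The shares of all genes called with the term and within the sets are not given here. Of the 9 genes called over all libraries, 8 were tested in each set, and each had a positive log2 fold change in both sets. Cenpf had a log2 fold change of 2.78 in replicates 1 to 3 and 2.82 in replicates 4 and 5, and Ccne1 had 2.77 and 2.89. Gins2 had 2.13 in replicates 1 to 3 but 0.63 in replicates 4 and 5, and Prc1 had 1.75 and 0.50. Rrm1 was called in neither set alone (edgeR adjusted p = 0.0543 in replicates 1 to 3 and 0.437 in replicates 4 and 5).

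The promoters of mitotic and replication genes carry different known elements, shown here for genes of both classes to make the letters visible. A window of 250 bases before and 50 after the annotated start was found in RefSeq (GRCm38.p6) for 35 of the 45 genes. It was searched on both strands for the CHR element of mitotic genes (TTTGAA or TTCGAA), for E2F sites (TTTGGCGC, TTTCCCGC, TTTGCCGC or TTTCGCGC) and for the CCAAT box. The CHR element was found in 17 of 22 mitotic genes (77.3%), in 2 of 11 replication genes (18.2%) and in 21.7% of the 27025 genes with a window. An E2F site was found in 1 of 22 mitotic genes (4.55%), in 6 of 11 replication genes (54.5%) and in 2.6% of all genes. The CCAAT box, which is short and common, was found in 81.8% of the mitotic genes, 72.7% of the replication genes and 41.1% of all genes. These matches describe letters only. The sequences below run from 220 bases before to 30 bases after the start, on the gene's own (minus) strand, with matches to the 3 kinds of element in capitals: Cenpf at chr1:189688057-189688306, Ccnb2 at chr9:70421525-70421774, Top2a at chr11:99024160-99024409, Mcm3 at chr1:20820283-20820532 and Mcm6 at chr1:128359676-128359925. In Cenpf and Ccnb2 the last capitals are a CHR element just past the start, and in Mcm6 a pair of E2F sites overlap.
Cenpf: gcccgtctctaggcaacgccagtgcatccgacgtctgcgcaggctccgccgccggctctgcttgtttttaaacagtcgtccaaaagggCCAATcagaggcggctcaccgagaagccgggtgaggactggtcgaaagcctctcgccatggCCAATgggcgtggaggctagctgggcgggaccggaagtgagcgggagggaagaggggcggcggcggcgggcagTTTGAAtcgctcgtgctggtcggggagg
Ccnb2: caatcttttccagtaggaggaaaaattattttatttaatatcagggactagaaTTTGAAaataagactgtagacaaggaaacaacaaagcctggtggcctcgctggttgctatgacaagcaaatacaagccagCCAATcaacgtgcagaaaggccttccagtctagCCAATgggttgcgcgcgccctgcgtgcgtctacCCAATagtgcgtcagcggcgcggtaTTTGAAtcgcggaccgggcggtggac
Top2a: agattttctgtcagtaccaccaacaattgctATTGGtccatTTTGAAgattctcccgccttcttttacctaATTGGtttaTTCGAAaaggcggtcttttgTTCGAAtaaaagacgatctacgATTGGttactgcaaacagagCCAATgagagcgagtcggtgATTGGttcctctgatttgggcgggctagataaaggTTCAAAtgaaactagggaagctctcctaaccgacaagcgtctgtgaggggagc
Mcm3: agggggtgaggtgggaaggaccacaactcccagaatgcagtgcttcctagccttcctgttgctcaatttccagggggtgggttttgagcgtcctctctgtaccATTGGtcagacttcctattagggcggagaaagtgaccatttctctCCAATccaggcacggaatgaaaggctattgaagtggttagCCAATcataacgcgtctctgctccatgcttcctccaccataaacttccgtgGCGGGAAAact
Mcm6: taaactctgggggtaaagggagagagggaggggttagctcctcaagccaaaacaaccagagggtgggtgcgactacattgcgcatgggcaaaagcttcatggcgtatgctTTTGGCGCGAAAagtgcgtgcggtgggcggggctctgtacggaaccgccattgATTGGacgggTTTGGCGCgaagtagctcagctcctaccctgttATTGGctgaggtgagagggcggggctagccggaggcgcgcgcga
Of these genes, Cenpf, Ccnb2 and Top2a were called higher in DUX4 muscle at both times, while Mcm3 was called at neither. Mcm6 averaged 7.33 ± 2.13 CPM in IDUX.2Weeks and 2.58 ± 1.26 CPM in WT.2Weeks (SD, n = 5 each), with groups that did not overlap and an edgeR adjusted p of 0.0531, just outside the threshold. Outside these 5 genes, Bub1, Kif11 and Prc1 have a CHR element and were called higher at 1 or both times. Mki67, Aurka, Cdk1, Bub1b, Ube2c, Kif23, Cdc20, Cdca3, Cdca8 and the replication gene Mcm7 have it and were called at neither. Plk1 and Ndc80 have it and were not tested in muscle. Mcm2 has it and was called lower at 16 weeks. Ccne1, called higher at both times, has none of the 3 elements. Nor do Birc5, Nuf2 and Tyms, which were called higher at 16 weeks. Whether an element goes with the DUX4 effect was not tested.

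At 16 weeks, 11 of the 41 cell cycle genes tested were higher in DUX4 than in WT muscle and 1 was lower. Across all genes tested, 14.1% were called higher and 12.5% lower. Of the 11, 7 were mitotic (Cenpf, Ccnb2, Birc5, Bub1, Nuf2, Top2a and Kif11), 2 were replication genes (Tyms and Gins2) and 2 belonged to cycle entry (Ccnd1 and Ccne1), and the gene that was lower was Mcm2. Of the genes called higher, Cenpf, Ccnb2, Bub1, Nuf2 and Ccne1 had passed the count filter mainly through DUX4 libraries and had little room to be called lower. Of the 41, 19 had an unadjusted p under 0.05, as had 5927 of all 15396 genes tested. The median log2 fold change was 0.71 for the mitotic genes, 20 of 26 being positive, 0.34 for the replication genes, 10 of 13 being positive, and 0.11 for all genes. Leaving out WT.16Weeks replicate 1, the library that stood apart, gave 17 genes higher and 2 lower. Ccna2, Rrm2, Cdt1, Cdca8, Ndc80, Mki67 and Pcna were gained as higher and Ccne2 as lower, and Nuf2 was lost. Leaving out WT.16Weeks replicates 1 and 4 together gave 17 higher and none lower, without Gins2, Kif11, Nuf2 and Mcm2. The shares of all genes called in these fits are not given here. With library totals the median of all genes tested was 0.37, in place of 0.01 with TMM scaling. Of all genes, 4162 were then higher and 472 lower in place of 2169 higher and 1928 lower.

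Cenpf had 4.33, 7.47, 5.85 and 5.56 CPM in IDUX.16Weeks, against 0.456, 0.388, 0.34 and 0.336 CPM in WT.16Weeks. Its groups lay far apart, with a log2 fold change of 3.88 ± 0.43 and an edgeR adjusted p of 1.44e-05. Ccnb2 had 1.27, 1.07, 1.4 and 1.68 CPM in IDUX.16Weeks, against 0.391, 0.0777, 0 and 0.505 CPM in WT.16Weeks (log2 fold change 2.67 ± 0.71, edgeR adjusted p = 0.0112). Its groups did not overlap, but Ccnb2-ps held 94 counts in IDUX.16Weeks and 58 in WT.16Weeks, against 95 and 10 counts for Ccnb2. Top2a had 3.91, 3.35, 3.49 and 4.0 CPM in IDUX.16Weeks, against 2.61, 0.388, 0.34 and 1.18 CPM in WT.16Weeks (1.71 ± 0.49, edgeR adjusted p = 0.0163), again with no overlap.

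Birc5, which encodes survivin, an Aurora B partner, had 2.45, 1.68, 6.99 and 2.07 CPM in IDUX.16Weeks, against 1.04, 0.155, 0.51 and 0.336 CPM in WT.16Weeks. Tyms, the enzyme that makes thymidylate for DNA, had 3.81, 3.66, 12.1 and 5.08 CPM in IDUX.16Weeks, against 2.67, 0.699, 0.793 and 1.85 CPM in WT.16Weeks. For both genes DUX4 replicate 3 was far above the other DUX4 libraries, and every DUX4 library was above every WT library. The log2 fold changes were 2.62 ± 0.61 for Birc5 (edgeR adjusted p = 0.00468) and 2.06 ± 0.44 for Tyms (0.00277), and neither call was lost when any 1 library was left out. Kif11, the motor that pushes spindle poles apart, averaged 1.31 ± 0.468 CPM in IDUX.16Weeks and 0.441 ± 0.209 CPM in WT.16Weeks (SD, n = 4 each) and was called without overlap (1.48 ± 0.39, edgeR adjusted p = 0.011).

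Nuf2, which anchors microtubules to the kinetochore, had 1.13, 0.152, 2.16 and 0.646 CPM in IDUX.16Weeks, against 0.261, 0.0777, 0.453 and 0.336 CPM in WT.16Weeks. DUX4 replicate 2 fell among the WT libraries, and the call (1.87 ± 0.64, edgeR adjusted p = 0.0375) was lost in 5 of 8 fits that left out 1 library. Bub1 had 1.22, 1.68, 0.318 and 0.301 CPM in IDUX.16Weeks, against 0.326, 0, 0.0566 and 0.168 CPM in WT.16Weeks. Its groups touched, and its call (2.54 ± 0.82, edgeR adjusted p = 0.0303) was lost in 4 of 8 such fits. Ndc80, Nuf2's partner, had too few counts to be tested, at 0.283, 0.762, 0.254 and 0.603 CPM in IDUX.16Weeks against 0.0651, 0, 0 and 0 CPM in WT.16Weeks.

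Among the genes of cycle entry, Ccnd1, the D-type cyclin that growth signals induce, had 32.2, 16.5, 10.6 and 27.9 CPM in IDUX.16Weeks, against 4.23, 4.43, 6.68 and 13.3 CPM in WT.16Weeks. Its groups overlapped at DUX4 replicate 3 and WT replicate 4, with a log2 fold change of 1.65 ± 0.47 and an edgeR adjusted p of 0.0165. Ccne1 had 1.98, 0.915, 2.1 and 1.68 CPM in IDUX.16Weeks, against 1.3, 0.311, 0.396 and 0.505 CPM in WT.16Weeks. The highest WT value was that of replicate 1, the library that stood apart. Without that library the log2 fold change was 2.09 ± 0.49 (edgeR adjusted p = 0.00524). The call over all libraries (1.39 ± 0.48, edgeR adjusted p = 0.0413) was lost in 6 of 8 fits that left out 1 library, each of them a fit without another library. Gins2 had 30.9, 27.8, 24.9 and 15.8 CPM in IDUX.16Weeks, against 12.2, 12.3, 11.2 and 3.53 CPM in WT.16Weeks, with no overlap (1.32 ± 0.39, edgeR adjusted p = 0.019). The Gins2 call was lost without DUX4 replicate 1 (edgeR adjusted p = 0.0553) and without WT replicates 1 and 4 together (0.0836), and the Ccnd1 call was lost in 2 of 8 fits that left out 1 library.

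Mcm2, a subunit of the helicase ring, was the only cell cycle gene called lower in DUX4 muscle at 16 weeks. It had 3.77, 5.03, 5.78 and 4.52 CPM in IDUX.16Weeks, against 10.4, 6.52, 6.74 and 6.9 CPM in WT.16Weeks. All DUX4 libraries lay below all WT libraries, of which replicate 1 was the highest. The log2 fold change was -0.69 ± 0.18 with an edgeR adjusted p of 0.00879, and the call held without any 1 library. It was lost with library totals in place of TMM scaling (edgeR adjusted p = 0.191), in a fit of only the 16-week groups (0.0503) and without WT replicates 1 and 4 together (0.063). The other 5 subunits of the ring were not called at 16 weeks. Mki67 had 1.84, 0.915, 0.953 and 2.76 CPM in IDUX.16Weeks, against 2.61, 0.544, 0.51 and 0.168 CPM in WT.16Weeks, with overlapping groups and an edgeR adjusted p of 0.458. The overlap came from WT replicate 1, the library that stood apart, and without it the groups were apart and Mki67 was called higher in DUX4 muscle (log2 fold change 1.88 ± 0.67, edgeR adjusted p = 0.0454).

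**Figure D2:**
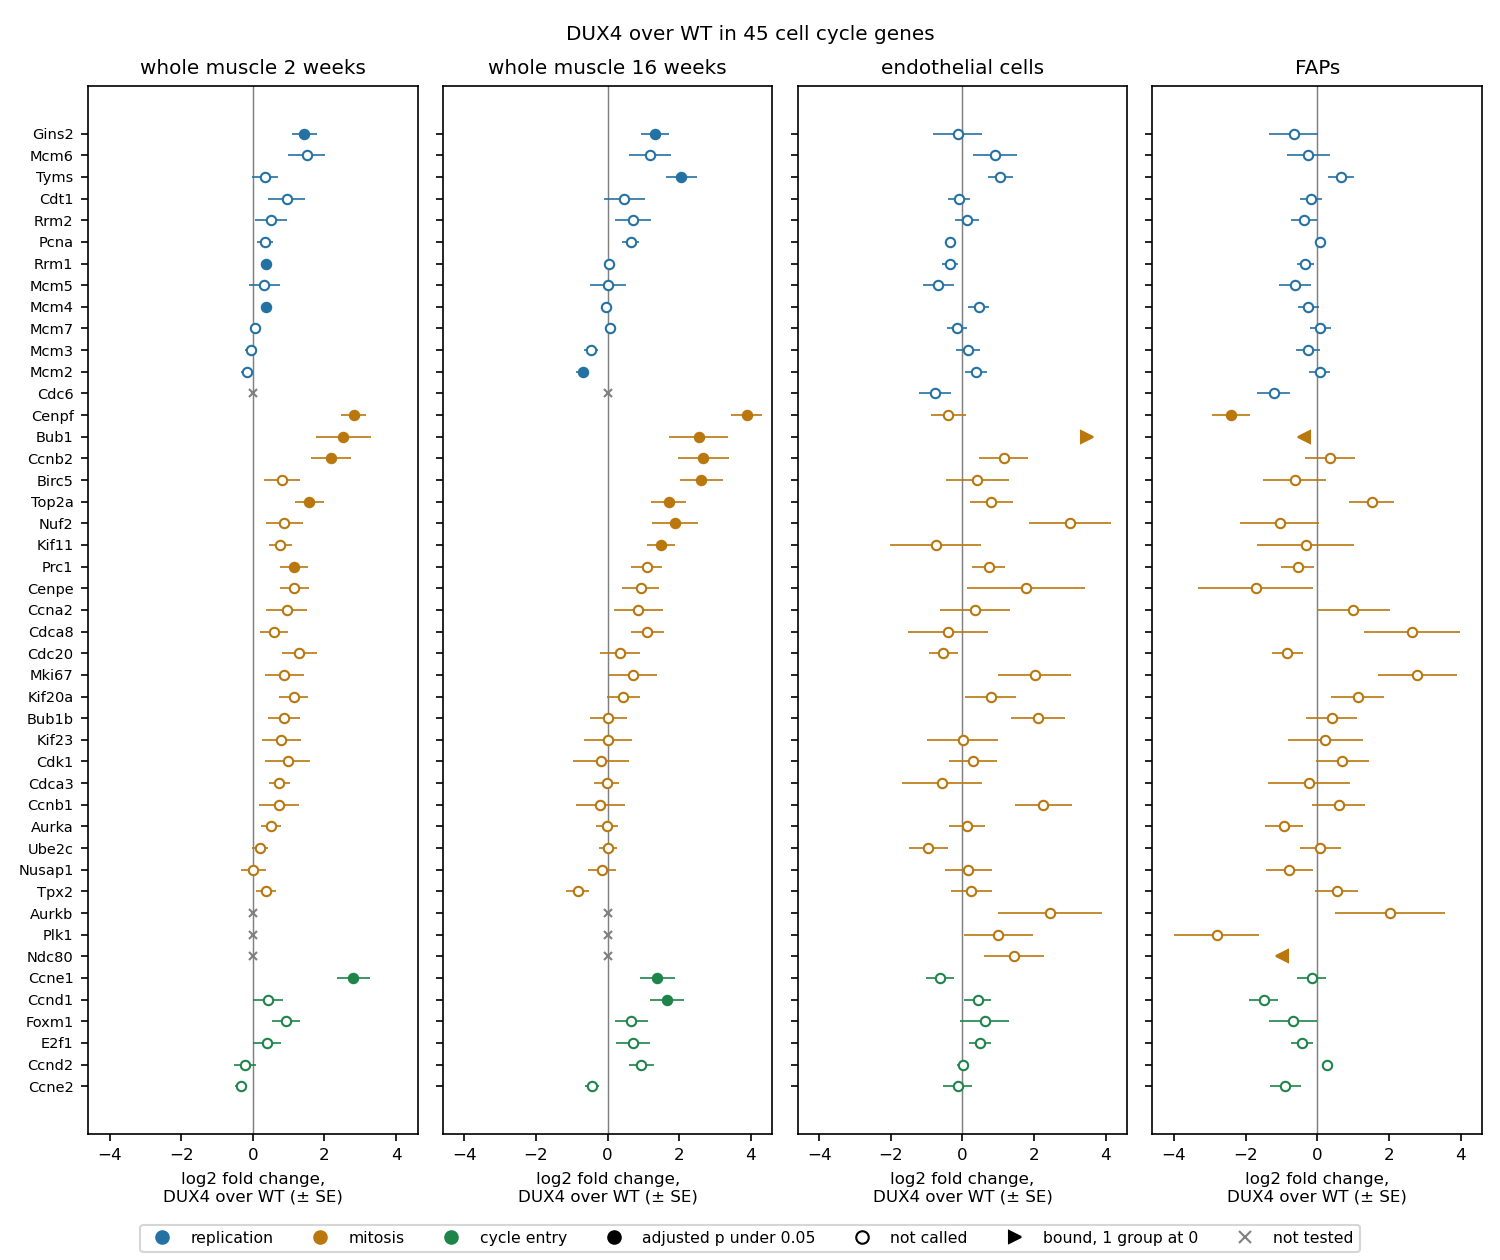
Log2 fold change, DUX4 over WT (x axis, ± SE), of each of the 45 genes (y axis) in whole muscle at 2 and 16 weeks, endothelial cells and FAPs. Filled circles passed an adjusted p under 0.05, open circles did not, triangles are bounds where 1 group was at 0, and crosses were not tested. Filled circles in muscle lie to the right of 0 except Mcm2 at 16 weeks, endothelial cells have none, and Cenpf and Ndc80 were the 2 genes called in FAPs.

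Whether the DUX4 effect changed between the times was tested directly, as the difference of the effect at 16 weeks minus that at 2 weeks. None of the 41 cell cycle genes was called by edgeR, against 0.299% of all genes in either direction. Of the 41, 8 had an unadjusted p under 0.05, as had 2721 of all 15396 genes tested. Of the cell cycle genes, DESeq2 called 0 and limma voom called 1, Tyms. Tyms had an effect larger by 1.72 ± 0.57 on the log2 scale at 16 weeks (edgeR adjusted p = 0.167), and Ccne1 had one smaller, at -1.42 ± 0.66 (0.277). By edgeR no gene called at only 1 of the times was shown to differ between them, while Tyms, called at 16 weeks alone, differed by limma voom.

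Time was compared within each genotype. In WT muscle Mcm4 and Rrm1 were higher at 16 than at 2 weeks, by 0.51 and 0.33 on the log2 scale (edgeR adjusted p = 0.0123 and 0.0359), against 7.9% of all genes called higher. Kif11, Cenpe and Tyms were lower at 16 weeks, at -1.94, -1.59 and -1.41 (edgeR adjusted p = 0.00542, 0.0434 and 0.0367), against 5.68% of all genes called lower. In DUX4 muscle no cell cycle gene was called higher at 16 weeks, where 4.83% of all genes were, and Cenpe (-1.84), Bub1b (-1.72) and Kif11 (-1.22) were lower, where 2.42% of all genes were (edgeR adjusted p = 0.0162, 0.0413 and 0.0396). Kif11 had 1.98, 0.915, 1.27 and 1.08 CPM in IDUX.16Weeks against 2.42, 2.14, 2.86, 3.87 and 4.35 CPM in IDUX.2Weeks, and 0.586, 0.388, 0.623 and 0.168 CPM in WT.16Weeks against 2.29, 1.19, 2.75, 1.42 and 1.51 CPM in WT.2Weeks. Cenpe, a kinetochore motor, had 0.283, 0.305, 0.191 and 0.603 CPM in IDUX.16Weeks against 1.77, 0.834, 1.02, 1.93 and 0.967 CPM in IDUX.2Weeks, and 0.195, 0.233, 0.227 and 0 CPM in WT.16Weeks against 0.654, 0.542, 0.459, 0.473 and 0.754 CPM in WT.2Weeks. Both genes were lower at 16 weeks without overlap in each genotype. Bub1b, a checkpoint kinase relative, had 0.659, 0, 0.508 and 0.603 CPM in IDUX.16Weeks against 0.981, 2.09, 1.33, 1.86 and 1.87 CPM in IDUX.2Weeks. Mcm4 had 8.73, 6.37, 7.25 and 7.74 CPM in WT.16Weeks against 5.23, 6.07, 4.78, 4.94 and 5.37 CPM in WT.2Weeks, and Rrm1 had 41.1, 46.1, 40.9 and 41 CPM in WT.16Weeks against 31.8, 35.9, 29.3, 37.2 and 34.6 CPM in WT.2Weeks. These groups did not overlap either. The median log2 difference of the mitotic genes between 16 and 2 weeks was -0.83 in DUX4 and -0.77 in WT muscle, and that of the replication genes 0.04 in DUX4 and 0.11 in WT muscle, beside 0.05 and 0.00 for all genes. Leaving out 1 library ended the WT calls of Cenpe in 8 of 9 fits and of Tyms and Rrm1 in 6 of 9 each, but not those of Kif11 and Mcm4. In DUX4 muscle it ended the calls of Bub1b in 7 of 9 fits, of Kif11 in 6 and of Cenpe in 2. With the Hoxd8 set of the 2-week libraries as a term in the fit, Cenpe was not called in WT muscle (edgeR adjusted p = 0.0588) nor Kif11 in DUX4 muscle (0.0654). In WT muscle the counts were 2 higher and 7 lower without WT.16Weeks replicate 1, and 1 higher and 1 lower without WT.2Weeks replicate 1, 3 or 5.

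The summed level of the 26 mitotic genes was 60.6 to 88.5 CPM in IDUX.2Weeks and 24.1 to 51.1 CPM in WT.2Weeks, and 47.2 to 55.9 CPM in IDUX.16Weeks and 28.9 to 40.0 CPM in WT.16Weeks. The DUX4 and WT libraries did not overlap at either time. The summed level of the 13 replication genes was 110 to 148 CPM in IDUX.2Weeks and 94.0 to 104 CPM in WT.2Weeks, and 123 to 152 CPM in IDUX.16Weeks and 91.7 to 128 CPM in WT.16Weeks, where the groups overlapped. The log2 ratio of the group means of the mitotic sum was 0.92 at 2 weeks and 0.59 at 16 weeks, and that of the replication sum 0.44 and 0.35. Pcna and Rrm1 together made up 43.6% to 69.9% of the replication sum across all 32 libraries. In the mitotic sum, Aurka and Ube2c had the highest mean levels at 16 weeks in both genotypes. Aurka had 7.96 to 11.9 CPM in IDUX.16Weeks and 3.52 to 13.3 CPM in WT.16Weeks, and Ube2c 6.33 to 10.7 CPM and 7.76 to 8.58 CPM. Neither was called at either time, and sums without them were not taken. The ratio of the mitotic to the replication sum averaged 0.575 ± 0.136 in IDUX.2Weeks and 0.402 ± 0.111 in WT.2Weeks (SD, n = 5 each), and 0.379 ± 0.0267 in IDUX.16Weeks and 0.326 ± 0.0745 in WT.16Weeks (SD, n = 4 each). Because these sums were made from genes chosen with earlier results of these data known, they carry no test.

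**Figure D3:**
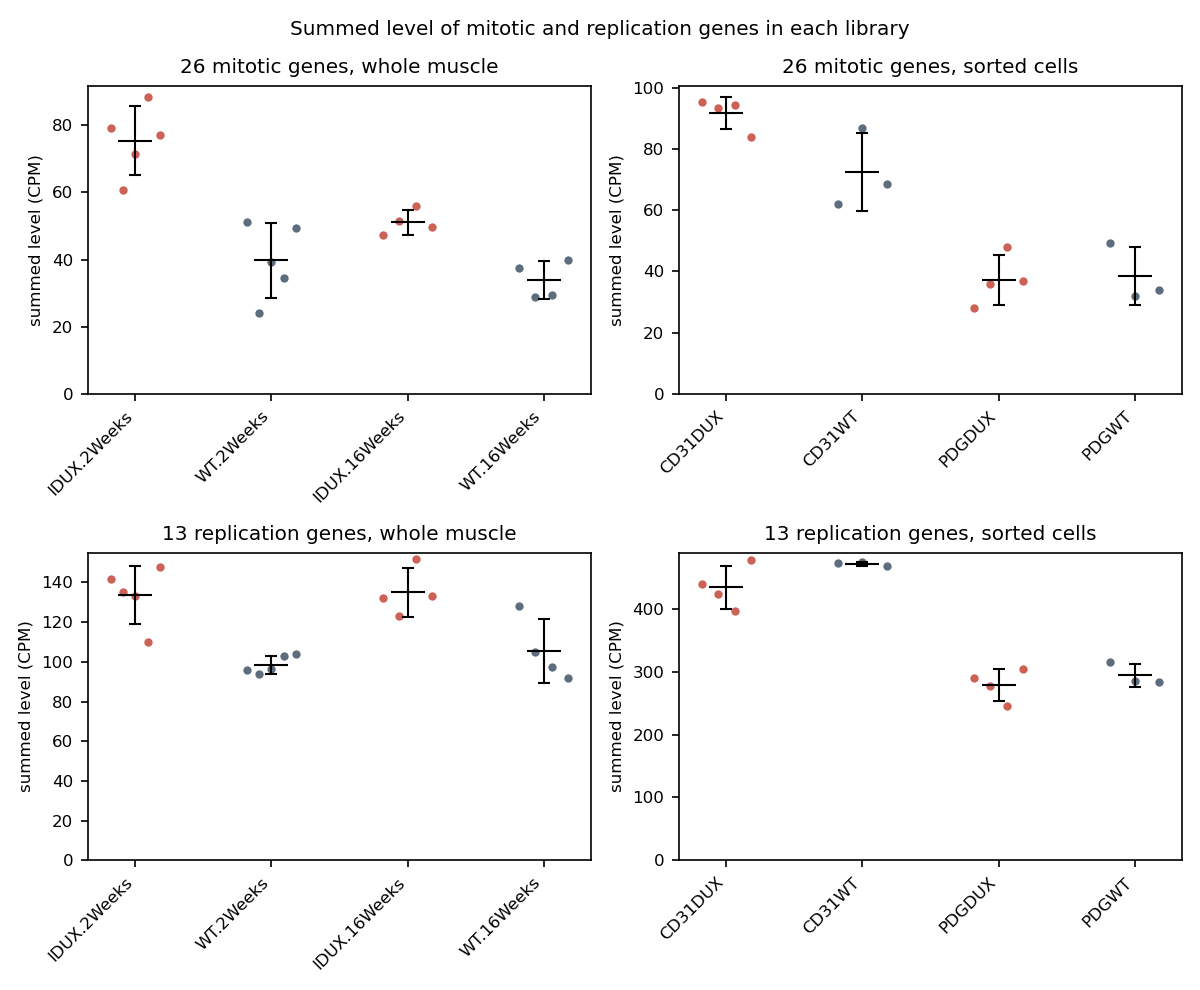
Summed level (CPM, y axis) of the 26 mitotic genes (top) and the 13 replication genes (bottom) in each library of whole muscle (left) and sorted cells (right), by group on the x axis. Points are libraries, horizontal bars means and whiskers SDs. The mitotic sums of DUX4 muscle lie at 60.6 to 88.5 CPM at 2 weeks and 47.2 to 55.9 CPM at 16 weeks, above all WT muscle of the same time, and the sums of FAPs overlap between genotypes.

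Cell cycle genes outside the 45 were followed as lists of 28 replication, 42 mitotic and 12 entry genes. The shares of all genes called, for these and the next lists, are those given above: 11.2% higher and 6.47% lower at 2 weeks, and 14.1% higher and 12.5% lower at 16 weeks. Of the further mitotic genes, 29 had enough counts to be tested. In DUX4 muscle at 2 weeks 6 of these 29 were higher and none lower, led by Kif4, a chromosome motor (2.46 ± 0.97 CPM in IDUX.2Weeks and 0.596 ± 0.362 CPM in WT.2Weeks; log2 fold change 2.02), Spc25, a kinetochore subunit (2.13), and the condensin subunit Smc2 (0.99). At 16 weeks 5 were higher and none lower, led by Kif4 (3.26), the centromeric histone Cenpa (1.63) and the checkpoint gene Mad2l1 (1.05). The summed level of all 42 further mitotic genes overlapped between genotypes at both times, at 134 ± 18.2 CPM in IDUX.2Weeks and 128 ± 15.3 CPM in WT.2Weeks (SD, n = 5 each), and 95.4 ± 12.0 CPM in IDUX.16Weeks and 83.5 ± 21.9 CPM in WT.16Weeks (SD, n = 4 each). Of 25 further replication genes tested, 1 was higher at 2 weeks (Slbp, the histone message binding protein, 0.46), and at 16 weeks 6 were higher, among them Pola2 (0.81) and Gins3 (1.5), and 2 were lower, among them the flap nuclease Fen1 (-0.87). Of the 12 further entry genes, 3 were higher and none lower at 2 weeks: the S-phase kinase Cdk2 (16.5 ± 7.43 CPM in IDUX.2Weeks and 4.98 ± 0.706 CPM in WT.2Weeks; 1.73), the G1 kinase Cdk6 (1.48) and Ccnd3 (0.56). At 16 weeks 6 were higher and 1 lower, with Cdk6 at 2.03, Cdk2 at 1.67 and Ccnd3 at 1.38.

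Of 14 genes that hold the cycle back, 2 were higher and 1 lower in DUX4 muscle at 2 weeks, which is near the shares of all genes called. Rb1, the retinoblastoma protein that restrains E2F, averaged 195 ± 74.4 CPM in IDUX.2Weeks and 34.8 ± 6.67 CPM in WT.2Weeks (SD, n = 5 each; log2 fold change 2.48 ± 0.32, edgeR adjusted p = 5.39e-05). Ccng1, a p53 target, averaged 2680 ± 270 CPM in IDUX.2Weeks and 1350 ± 249 CPM in WT.2Weeks (0.99 ± 0.14), and Rbl2, an Rb1 relative of the DREAM complex, was lower at -0.64 ± 0.13. At 16 weeks 5 were higher and 3 lower. Cdkn2a, the locus of the p16 and ARF inhibitors, averaged 3.35 ± 0.522 CPM in IDUX.16Weeks and 0.0357 ± 0.0415 CPM in WT.16Weeks (SD, n = 4 each; edgeR adjusted p = 0.000576), where the WT level was below that of 3 counts. Rbl2 (-0.97) and Cdkn1b, the p27 inhibitor (-0.63), were lower. In endothelial cells 13 of these genes were tested, where 5.07% of all genes were called in either direction. Cdkn1a was lower, at 1040 ± 156 CPM in CD31DUX and 2030 ± 352 CPM in CD31WT (-0.97, edgeR adjusted p = 0.00172). Cdkn1c was lower as well (-0.72) and Ccng1 higher (0.77). In FAPs Cdkn1c alone was called, lower at -0.86 (edgeR adjusted p = 0.0209), where 1.77% of all genes were lower.

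Markers of fibres moved with these genes in muscle, while at most 3 markers of any other cell type were called at either time. Of 12 mature fibre markers, 9 were lower in DUX4 muscle at 2 weeks and 7 at 16 weeks, with summed levels of 78000 to 161000 CPM in IDUX.2Weeks against 161000 to 196000 CPM in WT.2Weeks, and 75800 to 118000 CPM in IDUX.16Weeks against 169000 to 207000 CPM in WT.16Weeks. Of 8 regenerating fibre markers, 5 were higher at each time, with sums of 1380 to 3470 CPM in IDUX.2Weeks against 722 to 3170 CPM in WT.2Weeks, and 625 to 1140 CPM in IDUX.16Weeks against 186 to 443 CPM in WT.16Weeks. Of 12 macrophage markers, 2 were higher at each time, near the shares of all genes, with sums of 90.0 to 254 CPM in IDUX.2Weeks against 40.8 to 192 CPM in WT.2Weeks, and 106 to 287 CPM in IDUX.16Weeks against 35.7 to 221 CPM in WT.16Weeks. Of 8 satellite cell markers, 1 was higher and 1 lower at 2 weeks and 2 were higher and 1 lower at 16 weeks, and no endothelial marker was called at either time. Of 8 mural markers, 2 were lower at 2 weeks (Abcc9 and Kcnj8) and 1 at 16 weeks (Abcc9). FAP markers were not called at 2 weeks, and 3 of 12 were higher at 16 weeks. No marker of these lists was at 0 in all libraries of a muscle group, whereas Nkg7, a lymphocyte marker, was at 0 in all 4 groups. The part of these cell types in the cell cycle results was not tested, and in whole muscle more cells in cycle and more message per cell cannot be told apart.

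In endothelial cells none of the 45 genes was called between CD31DUX and CD31WT by edgeR, against 5.07% of all 17008 genes tested in either direction. Of the 45, 5 had an unadjusted p under 0.05, as had 2993 of all 17008 genes tested. Of the cell cycle genes, DESeq2 called 3 (Bub1, Bub1b and Ccnb1) and limma voom called 1 (Bub1). The mitotic genes had a median log2 fold change of 0.62, 20 of 26 being positive, and the replication genes one of -0.04, with 6 of 13 positive, beside 0.00 for all genes. The summed mitotic level was 84.0 to 95.5 CPM in CD31DUX and 62.1 to 86.7 CPM in CD31WT, and the replication sum 397 to 478 CPM in CD31DUX and 468 to 474 CPM in CD31WT. Both pairs of groups overlapped.

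The gene nearest to a call was Bub1, with 2.14, 1.63, 2.64 and 1.05 CPM in CD31DUX, against 0 in each of the 3 CD31WT libraries. Against a floor of 3 counts per library its level was at least 11.2-fold higher in CD31DUX (149 counts against 0), with an edgeR adjusted p of 0.0619. Mki67 had 6.7, 3.58, 6.06 and 6.23 CPM in CD31DUX, against 1.61, 1.9 and 0.65 CPM in CD31WT. All CD31DUX libraries lay above all CD31WT libraries, yet the log2 fold change of 2.02 had an edgeR adjusted p of 0.327. Tyms had 31, 14.8, 10.4 and 17.2 CPM in CD31DUX against 7.21, 11 and 8.39 CPM in CD31WT, overlapping at CD31DUX replicate 3 (edgeR adjusted p = 0.109). Cenpf, called higher in DUX4 muscle at both times, had 3.3, 4.01, 5 and 2.44 CPM in CD31DUX, against 2.65, 4.36 and 7.56 CPM in CD31WT, which overlapped. The CD31DUX libraries also differed from CD31WT in the RNA of other cells, with 9 of 12 FAP markers higher, erythroid sums of 1890 to 9850 CPM in CD31DUX against 17200 to 30200 CPM in CD31WT, and macrophage sums of 853 to 1610 CPM in CD31DUX against 152 to 950 CPM in CD31WT. Muscle RNA was apart as well, with mature fibre sums of 425 to 1170 CPM in CD31DUX against 125 to 316 CPM in CD31WT and regenerating fibre sums of 22.2 to 42.5 CPM in CD31DUX against 3.19 to 5.48 CPM in CD31WT, where Actn3, Actc1 and Myog were called higher. Of the mural markers, Acta2 (-1.40) and Myh11 (-1.68) were lower and Pdgfrb (1.07) was higher in CD31DUX. The part of these in the values of the cell cycle genes was not tested.

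In FAPs 2 of the 45 genes were lower in PDGDUX than in PDGWT and none was higher, against 1.77% of all genes called lower. Of the 45, 8 had an unadjusted p under 0.05, as had 2517 of all 17008 genes tested. Cenpf had 0.369, 0.535, 0.76 and 0.685 CPM in PDGDUX, against 3.09, 2.37 and 4.01 CPM in PDGWT. The groups did not overlap, and the log2 fold change was -2.41 ± 0.52 with an edgeR adjusted p of 0.0187. Ndc80 had 0 CPM in each of the 4 PDGDUX libraries, against 0.68, 0.135 and 0.88 CPM in PDGWT, where it rested on 29 counts. Against a floor of 3 counts per library its level was at least 1.99-fold lower in PDGDUX (edgeR adjusted p = 0.0364). Leaving out 1 library ended the call of Cenpf in 2 of 7 fits, those without PDGWT replicate 1 or 3, and that of Ndc80 in 6 of 7, all but the one without PDGWT replicate 2. Neither gene was called by limma voom (adjusted p = 0.055 for Cenpf and 0.194 for Ndc80), and in a fit of the FAP libraries alone Cenpf was not called (edgeR adjusted p = 0.073) and Ndc80 was not tested. Endothelial RNA moved with them, since Pecam1, Cdh5 and Egfl7 were the 3 of 12 endothelial markers called, each lower in PDGDUX, with Pecam1 at 21.3 ± 2.63 CPM in PDGDUX (SD, n = 4) and 44.8 ± 16.5 CPM in PDGWT (SD, n = 3). Also lower in PDGDUX were the satellite cell markers Megf10 (-4.92) and Chrdl2 (-2.05), the mural markers Myh11 (-1.85) and Acta2 (-1.22) and the Schwann cell marker Mbp (-1.41), while the mural marker Pdgfrb (0.81) and the FAP marker Lum (0.79) were higher. The part of these in the result was not tested.

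Over all genes of each class in FAPs, the median log2 fold change was -0.04 for the mitotic genes, 13 of 26 being positive, and -0.23 for the replication genes, with 4 of 13 positive, beside 0.00 for all genes. Summed mitotic levels were 28.0 to 48.1 CPM in PDGDUX and 32 to 49.2 CPM in PDGWT, and summed replication levels 245 to 305 CPM in PDGDUX and 283 to 315 CPM in PDGWT. Ccnd1 had 1.84, 4.6, 0.854 and 4.46 CPM in PDGDUX, against 7.42, 8.6 and 8.85 CPM in PDGWT. Its groups were apart, with a log2 fold change of -1.5 and an edgeR adjusted p of 0.056. Mki67 had 0.461, 0, 3.8 and 6.43 CPM in PDGDUX, against 0.371, 0.677 and 0.11 CPM in PDGWT, so that 2 of the 4 PDGDUX libraries were high and 1 was at 0 (edgeR adjusted p = 0.226).

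The DUX4 effect in FAPs minus that in endothelial cells was called for Bub1 and Ndc80, both lower, against 1.7% of all genes called lower. Both calls rest on groups at 0, since Bub1 was at 0 in all CD31WT and all PDGDUX libraries and Ndc80 at 0 in all PDGDUX libraries. Bub1 had 0, 0 and 1.1 CPM in PDGWT, and Ndc80 had 6.37, 4.64, 1.59 and 3.14 CPM in CD31DUX against 2.91, 0.839 and 0.591 CPM in CD31WT. The edgeR adjusted p was 0.0443 for Bub1 and 0.0352 for Ndc80, and leaving out 1 library ended the call of Bub1 in 12 of 14 fits and that of Ndc80 in 10 of 14.

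Between the WT cell types, 1 gene was higher and 10 were lower in PDGWT than in CD31WT, against 16.7% of all genes called higher and 14.5% lower. The 10 were 4 replication genes (Mcm3, Pcna, Cdc6 and Mcm2), 4 mitotic genes (Ube2c, Cdk1, Top2a and Cdca8) and the cyclins Ccnd1 and Ccnd2, and E2f1 was the gene that was higher. Mcm3, a subunit of the helicase ring, had 3.52, 7.04 and 14.2 CPM in PDGWT, against 29.6, 39.5 and 26 CPM in CD31WT (log2 fold change -1.94, edgeR adjusted p = 0.00063). Cdc6, which loads the ring, had 4.08, 5.21 and 2.47 CPM in PDGWT, against 13.2, 14.8 and 15.0 CPM in CD31WT (-1.87, 0.00855). Neither gene overlapped between the cell types. Pcna had 140, 123 and 124 CPM in PDGWT against 238, 218 and 258 CPM in CD31WT (-0.88, edgeR adjusted p = 0.000963), with no overlap. Among the mitotic genes, Ube2c, a ubiquitin-conjugating enzyme, had 0.618, 1.02 and 2.53 CPM in PDGWT, against 8.51, 6.88 and 6.03 CPM in CD31WT (-2.35, edgeR adjusted p = 0.00792). Cdk1, the mitotic kinase, had 0.185, 0.406 and 0.275 CPM in PDGWT, against 1.66, 2.29 and 1.54 CPM in CD31WT (-2.64, edgeR adjusted p = 0.0167), and neither gene overlapped. Top2a had 1.92, 0.542 and 0.715 CPM in PDGWT, against 3.37, 5.37 and 3.01 CPM in CD31WT (-1.88, edgeR adjusted p = 0.0406), also apart. Cdca8, an Aurora B partner, had the largest log2 difference of the 10, at -3.91 (edgeR adjusted p = 0.0464), with 0.0618, 0.406 and 0 CPM in PDGWT against 6.12, 0.392 and 0.591 CPM in CD31WT, so that CD31WT replicate 1 was high and the groups overlapped. Leaving out 1 library ended the call of E2f1 in 5 of 6 fits, of Mcm2 in 4, of Top2a and Cdca8 in 3 each and of Cdk1 and Ccnd1 in 2 each, and E2f1 was not called with library totals (edgeR adjusted p = 0.168). Without PDGWT replicate 3 the lower genes were 6, and without CD31WT replicate 2 they were 7, with none higher in either fit. Scaling moved the split of all genes here, to 1981 higher and 3611 lower with library totals, in place of 2836 higher and 2459 lower. Ube2c is uncertain because it shares exon sequence with Tnnc2, a fast fibre gene on the other strand. Of 12 mature fibre markers, 8 were lower in PDGWT, with sums of 22.4 to 93.4 CPM against 125 to 316 CPM in CD31WT. Of 8 satellite cell markers 7 were lower, and of 8 mural markers 6 were lower and 2 higher. The part of these in the calls was not tested.

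Whole muscle and sorted cells were compared through their DUX4 effects, in 1 fit of all 32 libraries, as the mean effect of both cell types minus the mean effect of both muscle times. In this difference 1 of the 45 genes was higher and 6 were lower, against 8.38% of all 18399 genes called higher and 7.26% lower. Among the cell cycle genes with no group at 0, Cenpf had the largest difference, at -4.63 ± 0.42 on the log2 scale with an edgeR adjusted p of 1.03e-08, being higher with DUX4 in muscle and lower with DUX4 in FAPs. Ccne1 differed by -2.40 ± 0.43 (edgeR adjusted p = 0.000263). In sorted cells Ccne1 had 14.6, 12.7, 14.8 and 19.4 CPM in CD31DUX against 7.94, 19.8 and 43.4 CPM in CD31WT, and 10.4, 10.8, 15.8 and 11.4 CPM in PDGDUX against 17.4, 13.1 and 10.2 CPM in PDGWT. Both pairs overlapped, unlike those of muscle at 2 weeks.

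Gins2 differed by -1.66 ± 0.52 (edgeR adjusted p = 0.0276), with 5.88, 1.9, 4.71 and 4.27 CPM in CD31DUX against 5.4, 2.24 and 6.15 CPM in CD31WT, and 2.77, 6.09, 2.37 and 0.514 CPM in PDGDUX against 4.88, 1.56 and 7.42 CPM in PDGWT. Both pairs overlapped, and the call was lost without CD31WT replicate 3 or PDGWT replicate 3. Ccnd1 differed by -1.48 ± 0.45 (edgeR adjusted p = 0.0249), with 36.9, 25.6, 31.5 and 23.8 CPM in CD31DUX against 21.4, 28.1 and 16.2 CPM in CD31WT, beside the FAP values above. Cdc20, the activator of the ligase that ends mitosis, had 4.78, 8.64, 9.52 and 13.9 CPM in CD31DUX against 6.54, 15.3 and 18.1 CPM in CD31WT, and 2.95, 4.6, 3.04 and 2.31 CPM in PDGDUX against 7.91, 3.93 and 5.5 CPM in PDGWT. It differed by -1.41 ± 0.49 (edgeR adjusted p = 0.0466), a call lost in 20 of the 32 fits that left out 1 library. Ndc80 was called as well (edgeR adjusted p = 0.000992), on PDGDUX libraries at 0. Mcm2 was the gene that was higher, at 0.76 ± 0.21 (edgeR adjusted p = 0.0112), with 10.4, 11.1, 7.93 and 11.4 CPM in CD31DUX against 8.61, 8.51 and 6.44 CPM in CD31WT. With library totals the median of all genes tested in this difference was -0.47, in place of 0.01 with TMM scaling. All genes then split into 316 higher and 4096 lower in place of 1542 higher and 1335 lower. The Mcm2 call was then lost (edgeR adjusted p = 0.355) and 14 of the 45 genes were lower.

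The 45 genes had a median difference of -0.44 between sorted cells and muscle, with -0.42 for the mitotic genes, -0.50 for the replication genes and -0.11 for all genes. Mki67 (1.70 ± 0.82, edgeR adjusted p = 0.171), Ccnb1 (1.27 ± 0.67, 0.218) and Aurkb (1.95 ± 1.09, 0.246) had positive differences that did not pass the test. Top2a, called in muscle at both times, had a difference that did not pass, and its log2 fold change was positive in both cell types. The effect in each cell type was also set against that in muscle. In FAPs minus muscle 6 genes were lower (Ccne1, Cenpf, Ccnd1, Plk1, Ndc80 and Bub1). Of all 18399 genes, 784 were higher and 1093 lower. In endothelial cells minus muscle Ccne1 and Cenpf were lower and Mcm2 was higher, where 1343 of all genes were higher and 853 lower. Ccnd1 was thus called in FAPs alone (-2.44, edgeR adjusted p = 0.00656), and Gins2 and Cdc20 in neither cell type. The kits differed between muscle and sorted cells, but each effect was measured within 1 kit.

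**Figure D4:**
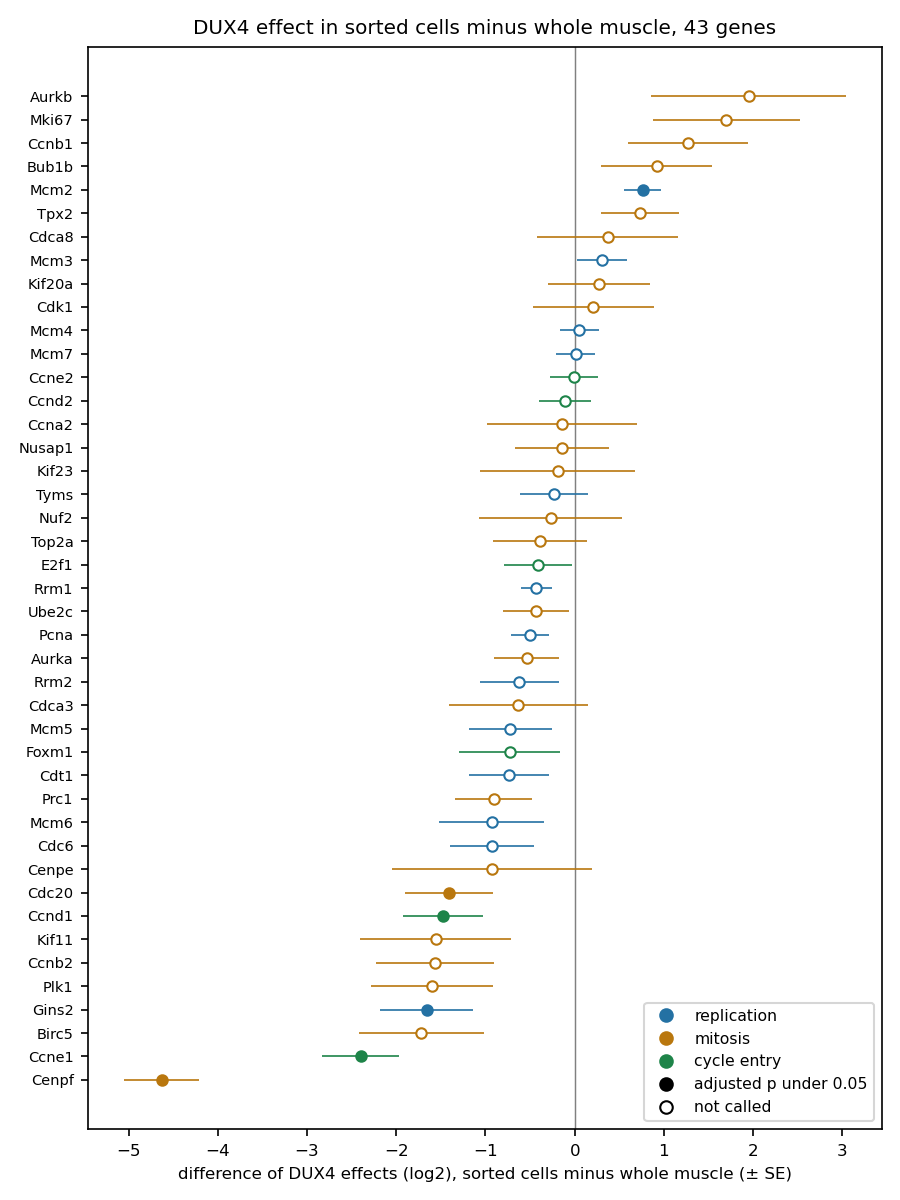
Difference of the DUX4 effect, sorted cells minus whole muscle (x axis, log2, ± SE), for 43 of the 45 genes (y axis). Filled circles passed an adjusted p under 0.05, and Bub1 and Ndc80 are left out because their values rest on groups at 0. Cenpf lies at -4.63, far to the left of every other gene, and Mcm2 at 0.76 is the filled circle to the right of 0.

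Of the 45 genes, 13 share exon sequence with a gene on the other strand: Mcm7, Gins2, Ccna2, Plk1, Kif20a, Nusap1, Prc1, Ube2c, Cdc20, Cdca8, Ccnd1, Ccnd2 and Ccne2. The case with the most counts was Ube2c, which overlaps Tnnc2, the troponin C of fast fibres, with 1186737 counts for Tnnc2 and 2684 for Ube2c over all libraries. In muscle Ube2c averaged 7.37 ± 1.17 CPM in IDUX.2Weeks and 6.34 ± 2.38 CPM in WT.2Weeks (SD, n = 5 each) and was not called at either time. Between the WT cell types it was called, lower in PDGWT than in CD31WT. Without strand, reads of such partners cannot be told apart. Pcna has a listed pseudogene as well, Pcna-ps2, whose counts were 18.6% of the pair in IDUX.16Weeks and 33.7% in WT.16Weeks.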

How the data were processed

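RNA of 18 whole-muscle and 14 sorted-cell libraries was sequenced as paired reads of 50 bases, from 500 ng of RNA with the KAPA mRNA Hyper Prep kit for muscle and after low-input cDNA amplification with Nextera XT for sorted cells, per the labels' protocols. The values are expected counts per Ensembl gene that the authors deposited. The submitters' processing notes name Salmon 0.6.0, CASAVA 1.8 and mm10. Neither the annotation release nor the handling of strand is given in the sources used here. Symbols, exon lengths and overlaps were taken from GENCODE for GRCm38, which matched 42459 of 43035 genes.

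Expected counts were rounded and tested with edgeR 4.0.16 (quasi-likelihood, robust, TMM scaling, filterByExpr with a minimum count of 10), with limma 3.58.1 and DESeq2 1.42.0 as alternatives in R 4.3.3. Muscle and sorted libraries were fitted apart, with 1 mean per group, and p-values were adjusted by Benjamini-Hochberg over all genes tested and called under 0.05. The difference of DUX4 effects between sorted cells and muscle came from 1 fit of all 32 libraries. The SE is the log2 fold change divided by the square root of F. The scripts were tested on simulated counts.

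The 45 genes and all lists were chosen with earlier results of these data known. All 45 were accounted for in each comparison. Of other genes, at most the 3 with the smallest p among the genes called in a list are named. The 6 called genes with the largest change in a comparison are given by library, and Mki67, Pcna, Mcm2, Mcm6, Tyms, Ccnd1, Ccne1 and Cdc20 outside those 6 were chosen after their values were seen. Replicate numbers only name libraries. Alternatives were other tests, scalings and filters, fits of only the groups compared, and leaving out each library.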

Additional observations from a re-analysis of the deposited data

Results flagged for a closer look

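Genes were tested within groups of 4 or 5 libraries for a library far from the others, but not every gene in every such group. In 8 of the 100 tests made, 1 library lay far from the others, where chance gives about 1 in 20. Gins2 was 3.53 CPM in WT.16Weeks replicate 4, against a mean of 11.9 CPM in the other 3. Birc5 was 6.99 CPM and Tyms 12.1 CPM in IDUX.16Weeks replicate 3, against means of 2.06 and 4.19 CPM in the other 3. Nuf2 was 7.97 CPM in CD31DUX replicate 1, against 0.936 CPM in the other 3. Ndc80 was 1.08 CPM in IDUX.2Weeks replicate 4, against 0.42 CPM in the other 4. In WT.16Weeks replicate 1, the library that stood apart in its markers, Ndc80 was 0.0651 CPM against 0 in the other 3, Mki67 was 2.61 CPM against 0.407 CPM, and Mcm2 was 10.4 CPM against 6.72 CPM. The Ndc80 flag rests on 1 count, below the level of 3 counts. With the other libraries at 0, any count would have been flagged. These flags are not a full list. In WT.16Weeks replicate 1, Ccna2 was 1.89 CPM against 0.0777 to 0.168 CPM in the rest of its group. Rrm2 was 5.34 CPM there against 0.68 to 1.01 CPM. Plk1 was 2.91 CPM in CD31DUX replicate 1, against 1.11 to 1.2 CPM in the rest of its group.

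Other genes stood out because their DUX4 effects differed between kinds of sample, by a test of the difference (edgeR, adjusted over all genes). For the effect in sorted cells minus that in whole muscle, the log2 differences were -4.63 for Cenpf, -4.65 for Ndc80, -2.40 for Ccne1, -1.66 for Gins2, -1.48 for Ccnd1, -1.41 for Cdc20 and 0.76 for Mcm2. For the effect in FAPs minus that in endothelial cells, they were -13.54 for Bub1 and -7.66 for Ndc80. The values of Ndc80 and Bub1 are fitted values that rest on groups at 0 and are no measure of size.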

How the results depend on the processing

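The 23 calls of cell cycle genes in the 4 DUX4 over WT comparisons were refitted 401 times: 322 refits kept sign and call, 79 kept the sign and lost the call, and none had the other sign. Counts of genes called moved by more than 1.5 times as follows, and the cause was not tested. With library totals in place of TMM scaling, a choice made after seeing the data, they were 18 for muscle at 2 weeks (9 with TMM), 1 for DUX4 muscle over time (3 with TMM), 3 for WT muscle over time (5) and 14 for sorted cells minus muscle (7), while 16 at 16 weeks (12) and 3 for FAPs (2) moved by no more than that. With limma voom they were 25 at 16 weeks, 1 for the change between times, 17 for WT muscle over time, 7 for DUX4 muscle over time, 1 for endothelial cells, 1 for FAPs and 1 for FAPs minus endothelial cells. With DESeq2 they were 5 for DUX4 muscle over time, 3 for endothelial cells and 11 for sorted cells minus muscle. Without a count filter they were 3 for WT muscle over time, 1 for DUX4 muscle over time, 1 for endothelial cells and 4 for sorted cells minus muscle, and with the stricter filter 1 for DUX4 muscle over time and 1 for FAPs minus endothelial cells. With only the groups compared in the fit they were 7 at 16 weeks, 1 for WT and 6 for DUX4 muscle over time, 1 for endothelial cells and 0 for FAPs. The 2-week libraries with low Hoxd8 alone gave 0. Shares of all genes called with limma voom, DESeq2, other filters, fewer groups or 1 library left out are not given here. The counts from those fits, here and below, thus cannot show whether a change is particular to the cell cycle genes.

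Leaving out 1 library gave 6 to 9 genes at 2 weeks, 9 to 19 at 16 weeks, 0 for the change between times, 2 to 9 for WT and 0 to 3 for DUX4 muscle over time, 0 for endothelial cells, 0 to 2 for FAPs, 0 to 2 for FAPs minus endothelial cells, 6 to 11 for WT FAPs over endothelial cells and 5 to 9 for sorted cells minus muscle. The log2 ratio of summed mitotic levels moved to 0.93 with totals and 0.37 per kilobase at 16 weeks (0.59 in CPM), and to 0.16 per kilobase in endothelial cells (0.34). That of summed replication levels moved with totals to 0.79 at 2 weeks and 0.70 at 16 weeks. Leaving out 1 library gave mitotic ratios of 0.79 to 1.03 at 2 weeks, 0.52 to 0.68 at 16 weeks, 0.24 to 0.49 in endothelial cells and -0.19 to 0.18 in FAPs, and replication ratios of 0.40 to 0.50, 0.29 to 0.46, -0.17 to -0.08 and -0.12 to -0.02.

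No paired analysis was possible because the labels give no replicate numbers that pair libraries across groups. Depth limits the genes with few counts in muscle, of which Cdc6, Aurkb, Plk1 and Ndc80 were not tested.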
